A study of Mus musculus with 39 samples.

Results

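The 31 genes described here are mouse genes best known from heart (12 genes), liver (12) and skeletal muscle (7), out of 39017 genes in the deposited count table. They were found by symbol, and they had been chosen by their CPM in these same libraries. Levels are CPM, a gene's counts divided by the total of its library and scaled to a total of 1000000. The summed CPM of Myh6, Myh7, Myl2 and Mb is called the heart sum, that of Alb, Fga, Fgb, Ahsg, Mat1a and Cps1 the liver sum, and that of the 7 skeletal muscle genes the muscle sum. A library with a heart sum of 10 CPM or more is called heart-bearing and any other heart-free. Since the genes were chosen for these levels and ratios, both are given as a description with no test, and only the comparison of T cell classes is tested.

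The series holds RNA sequencing counts of YFP-labelled tumour cells sorted from pancreatic tumours that had grown under the skin of C57BL/6 mice for 3 weeks, without treatment. It has 14 libraries of 6 clones classed T cell high, 4 libraries of 2 clones classed intermediate, 3 libraries of 3 clones with no class, and 18 libraries of 9 clones classed T cell low. A clone is a tumour cell line named by a parent line and a clone number (yfp_6499c3), and the number that ends a title (no1, no2) is not explained by the labels. Whether libraries of 1 clone came from different mice is not stated. The clone is therefore the replicate in every test except the edgeR alternatives that take each library as a replicate. With clones as replicates, p-values measure only the spread between clones, some of which share a parent line.

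Cardiac and skeletal muscle contract through sarcomeres, in which myosin heavy and light chains pull on actin filaments that troponins and tropomyosin switch on when calcium rises. Hepatocytes make most plasma proteins, among them albumin, the fibrinogen chains and the apolipoproteins, and house the urea cycle. Pancreatic duct tumour cells are not known for these programmes, although some members are also made by other epithelia.

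Total counts ran from 7638130 to 103794674 per library. The labelled cell type was checked with 7 epithelial and duct genes (Krt8, Krt18, Krt19, Krt7, Epcam, Cdh1 and Sox9), whose summed level was 3723 to 10355 CPM in heart-bearing libraries and 4523 to 12702 CPM in heart-free libraries. Every library held epithelial transcripts, and the ranges overlapped. The libraries nevertheless fell into 2 kinds. The heart sum was at least 152 CPM in 19 libraries and at most 0.235 CPM in the other 20, with none between. Of the heart-bearing libraries, 18 carried the title number 1 and 1 carried the number 2; of the heart-free libraries, 1 carried the number 1. In bulk RNA, fewer cells of a type and less RNA per cell cannot be told apart.

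Promoters of 4 members are shown because these genes stand for the patterns described below. Myh6 encodes the alpha cardiac myosin heavy chain, Alb encodes serum albumin and Acta1 encodes skeletal alpha-actin, and each was higher in every heart-bearing library than in any heart-free library. Tnnt2 encodes cardiac troponin T and was present in libraries of both kinds. It has 2 promoters in the table, of which the upstream one is shown. The sequences are RefSeq promoters of GRCm38.p6, from 250 bases before to 50 bases after the annotated start, read 5′ to 3′ on the gene's own strand. They lie at chr14:54966558-54966857 (minus strand) for Myh6, chr5:90460620-90460919 (plus) for Alb, chr8:123894726-123895025 (minus) for Acta1 and chr1:135836084-135836383 (plus) for Tnnt2. Capitals mark the letters TATAAA in Myh6, and GTTAAT and a match to TTGCNNAA on the other strand in Alb. They also mark a CArG box and the letters TATAAA in Acta1, and the letters CATTCC in Tnnt2. Other matches are left in lower case, among them a match to CATTCC in each of the Myh6 and Acta1 promoters shown.
Myh6: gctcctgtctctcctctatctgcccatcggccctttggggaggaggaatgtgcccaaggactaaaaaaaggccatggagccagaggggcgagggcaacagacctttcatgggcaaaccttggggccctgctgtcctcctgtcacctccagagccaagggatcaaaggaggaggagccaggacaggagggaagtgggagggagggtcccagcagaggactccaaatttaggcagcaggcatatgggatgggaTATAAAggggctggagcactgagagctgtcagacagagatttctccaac
Alb: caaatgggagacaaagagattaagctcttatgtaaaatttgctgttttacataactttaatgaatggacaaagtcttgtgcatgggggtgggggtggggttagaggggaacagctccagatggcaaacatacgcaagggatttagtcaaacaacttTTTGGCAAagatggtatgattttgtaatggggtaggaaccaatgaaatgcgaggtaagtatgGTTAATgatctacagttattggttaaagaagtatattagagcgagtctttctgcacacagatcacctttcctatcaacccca
Acta1: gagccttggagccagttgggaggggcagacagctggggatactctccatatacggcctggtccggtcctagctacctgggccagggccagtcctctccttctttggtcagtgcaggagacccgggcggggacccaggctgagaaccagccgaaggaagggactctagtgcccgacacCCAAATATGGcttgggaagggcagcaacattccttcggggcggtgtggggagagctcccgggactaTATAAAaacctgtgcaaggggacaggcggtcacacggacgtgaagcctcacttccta
Tnnt2: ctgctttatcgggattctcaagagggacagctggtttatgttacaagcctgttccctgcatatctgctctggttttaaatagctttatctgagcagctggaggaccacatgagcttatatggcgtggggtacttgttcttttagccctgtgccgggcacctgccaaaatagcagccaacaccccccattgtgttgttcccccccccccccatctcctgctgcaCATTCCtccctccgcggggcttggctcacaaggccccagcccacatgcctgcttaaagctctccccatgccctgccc
The table held a promoter for 25 of the 31 members, and motifs were searched on both strands. Of these, 5 members have more than 1 promoter there, and a gene counts as holding a motif if any of its promoters does, both for members and for the 27025 genes in the table. TATAAA, the letters of the box that helps place the start of transcription, occurred in 5 of 12 heart, 2 of 8 liver and 2 of 5 skeletal muscle members, against 15.7% of all genes. A match at any place in the promoter counted. Relative to the annotated start, the marked TATAAA began at +2 in Myh6 and at -7 in Acta1. CATTCC, the MCAT element bound by TEAD factors, occurred in 4 heart, 2 liver and 2 skeletal muscle members, against 16.6% of all genes. The CArG box, bound by serum response factor, occurred in Actc1, Myl3, Acta1 and Myh4, against 1.81% of all genes. GTTAAT, letters of an HNF1 site, occurred in Pln, Alb, Fga and Fgb, against 8.24%, and TTGCNNAA, letters of a C/EBP site, occurred in 6 of 8 liver members (Ahsg, Alb, Apoa2, Apob, Fga and Fgb), in Mb, Nppa and Myh4, against 12.2% of all genes. The E-box CANNTG, the letters bound by MyoD family and many other factors, was in 12 heart, 6 liver and 5 skeletal muscle members but also in 75.0% of all genes. The MEF2 site was found in Mybpc3 and Fgb, against 0.636% of all genes. MEF2 sites and TATAAA boxes can share letters. These matches describe letters only.

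Heart genes were present together in the 19 heart-bearing libraries. Myh7 encodes the beta cardiac myosin heavy chain, which in mice is the fetal form in the ventricle and also serves slow skeletal fibres, and Myh6 encodes the form that dominates the adult mouse heart. Myh7 ran from 83.5 to 2675 CPM in heart-bearing libraries (median 1439), against 0 to 0.0910 CPM in heart-free libraries (median 0). Myh6 ran from 45.4 to 1429 CPM in heart-bearing libraries (median 780.0), against 0 to 0.0268 CPM in heart-free libraries, of which 18 had no count at all. The 2 kinds of library lay far apart for both genes, and 3 counts, the upper limit that a count of 0 allows, corresponded to 0.0720 to 0.112 CPM in the heart-free libraries. The genes lie next to each other on GRCm38 (Myh6 at chr14:54941921-54966927 and Myh7 at chr14:54970684-54994626, both minus strand) and share much coding sequence, so how the authors' counting split reads between them is uncertain.

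Mb, which encodes the oxygen store myoglobin, stood at 11.5 to 435.1 CPM in heart-bearing libraries (median 227.5), against at most 0.202 CPM in heart-free libraries. Myl2, the regulatory light chain of ventricular myosin, stood at 11.4 to 373.9 CPM in heart-bearing libraries (median 202.1), against at most 0.0579 CPM in heart-free ones. Pln, which encodes the calcium pump inhibitor phospholamban, stood at 12.3 to 523.7 CPM in heart-bearing libraries (median 285.9), against at most 0.235 CPM in heart-free ones. None of these heart genes overlapped between the 2 kinds of library. The same held for Myl3 (ventricular essential light chain), Tnni3 (cardiac troponin I), Actc1 (cardiac actin), Mybpc3 (cardiac myosin-binding protein C), Nppa (atrial natriuretic peptide) and Ryr2 (the calcium release channel), whose medians ran from 19.4 CPM for Nppa to 158.7 CPM for Mybpc3 in heart-bearing libraries. Per kilobase of annotated exon, Myh7 had the highest mean level of the heart members in heart-bearing libraries, 192.8 CPM per kb, followed by Mb with 175.6, Myh6 with 132.3 and Myl2 with 117.5 CPM per kb.

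Liver genes were present in the same 19 libraries. Alb ran from 220.4 to 7321 CPM in heart-bearing libraries (median 4252), against 0 to 118.7 CPM in heart-free libraries (median 0.404). Apoa1, the main protein of high-density lipoprotein, ran from 52.0 to 1407 CPM in heart-bearing libraries (median 830.6), against at most 42.0 CPM in heart-free ones. Ahsg, which encodes the plasma glycoprotein fetuin-A, ran from 59.1 to 1841 CPM in heart-bearing libraries (median 1070), against at most 0.828 CPM in heart-free ones. Each heart-bearing library was above every heart-free library for these genes. The fibrinogen chains Fga, Fgb and Fgg, which form the clot and are encoded side by side on chr3 between 83007724 and 83049863 (GRCm38), had medians of 1196, 1473 and 738.7 CPM in heart-bearing libraries, and their highest values in heart-free libraries were 44.9, 76.6 and 16.8 CPM. Mat1a, the hepatic methionine adenosyltransferase, had a median of 660.8 CPM in heart-bearing libraries, against at most 0.239 CPM in heart-free ones. Cps1, which starts the urea cycle, had a median of 496.6 CPM in heart-bearing libraries, against at most 0.259 CPM in heart-free ones. Apoa2, a further high-density lipoprotein protein, had a median of 128.8 CPM in heart-bearing libraries, against at most 2.0 CPM in heart-free ones. Per kilobase of exon, Alb averaged 1890 CPM per kb in heart-bearing libraries, ahead of Apoa1 with 698.5 and Ahsg with 511.8 CPM per kb.

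Skeletal muscle genes were present in these libraries too. Acta1 ran from 8.86 to 186.1 CPM in heart-bearing libraries (median 115.2), against 0.0820 to 2.85 CPM in heart-free libraries. Atp2a1, the calcium pump of fast fibres, ran from 3.96 to 102.3 CPM in heart-bearing libraries (median 57.8), against at most 1.18 CPM in heart-free ones, and Tnnt3, fast skeletal troponin T, ran from 2.54 to 77.8 CPM in heart-bearing libraries (median 42.7), against at most 1.52 CPM in heart-free ones. Ckm (muscle creatine kinase) and Myh4 (the myosin heavy chain of IIb fibres) had medians of 36.2 and 22.7 CPM in heart-bearing libraries, against at most 0.471 and 0.261 CPM in heart-free libraries. These 5 genes did not overlap between the kinds of library. Several of them, Acta1 and Ckm among them, are expressed in heart as well as in skeletal muscle. Acta1 and Actc1 have near-identical coding sequences, so the split of reads between them is uncertain.

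**Figure D1:**
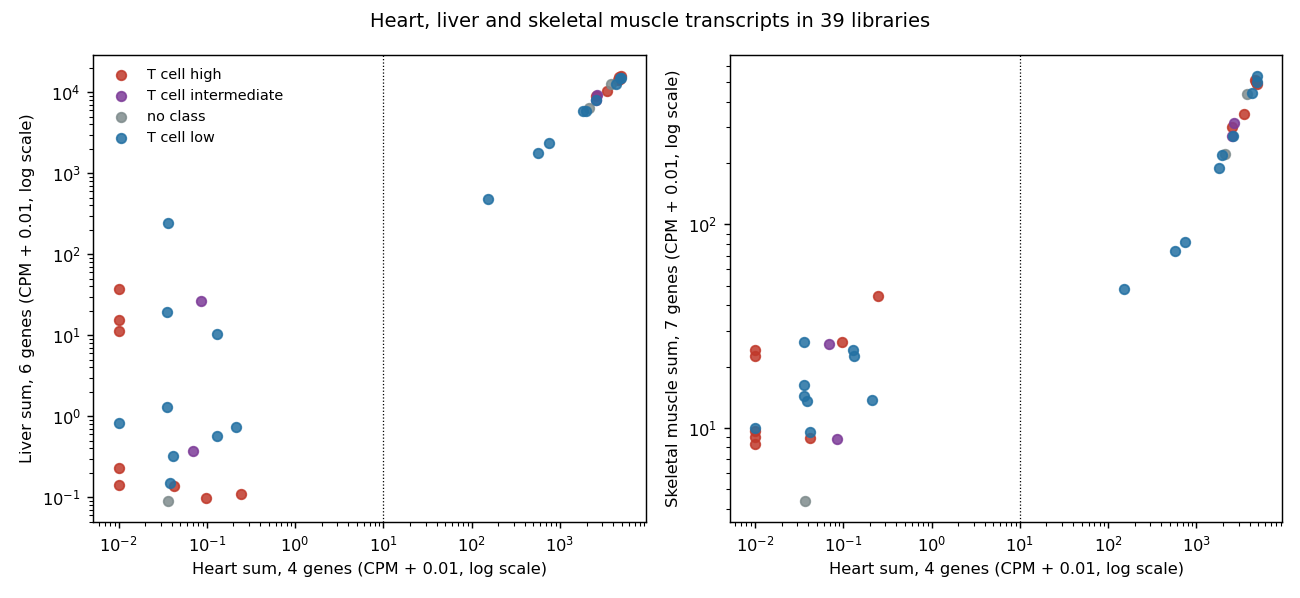
Liver sum (left) and muscle sum (right) against the heart sum for each of 39 libraries, all in CPM + 0.01 on log axes, coloured by class, with the 10 CPM line dotted. The 19 heart-bearing libraries lie on 1 line, except yfp_6499c3_no1 in the right panel, from a heart sum of 152 to 4893 CPM, and the 20 heart-free libraries at or below 0.235 CPM spread over liver sums of up to 241.2 CPM.

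In all, 25 of the 31 members were higher in every heart-bearing library than in any heart-free library, against 2.09% of 14427 genes that averaged 1 CPM or more. This contrast was part of the choice of members, so the share describes them and no more. The other 6 members, Tnnt2, Apob, Ttr, Trf, Mylpf and Tnni2, overlapped between the kinds. The summed level of all 31 members was 3305 to 28228 CPM in heart-bearing libraries and 151.7 to 1912 CPM in heart-free libraries.

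The labels of the 3 sets were checked against further genes of each tissue. Of 20 other heart genes, 17 were higher in every heart-bearing library than in any heart-free one, for example Actn2 (sarcomeric alpha-actinin, 5.28 to 180.6 CPM in heart-bearing libraries, against at most 0.116 CPM in heart-free ones) and Ttn (titin, 12.5 to 399 CPM in heart-bearing libraries, against at most 5.57 CPM in heart-free ones). The atrial light chain Myl7 was at most 0.453 CPM in heart-bearing libraries and at most 0.907 CPM in heart-free ones. Of 25 other liver genes, 18 were higher in every heart-bearing library than in any heart-free one, for example Serpina3k (a serine protease inhibitor, 23.5 to 780 CPM in heart-bearing libraries, against 0 CPM in every heart-free library) and the adult hepatocyte enzyme Cyp2e1 (9.81 to 363 CPM in heart-bearing libraries, against at most 0.0868 CPM in heart-free ones). Of 17 other skeletal muscle genes, 6 did not overlap and were higher in the heart-bearing libraries (Myh1, Myh2, Cacna1s, Myot, Mybpc1 and Pygm). Myh1, the myosin heavy chain of IIx fibres, was 6.03 to 170 CPM in heart-bearing libraries, against at most 0.231 CPM in heart-free ones. Yet the fast fibre genes Tnnc2 and Pvalb, which encode fast troponin C and parvalbumin, were at most 0.338 and 0.355 CPM in heart-bearing libraries. The other listed genes overlapped between the kinds as well. Of these, Myl1, Tnni1, Tnnt1, Casq1 and Myoz1 were at most 5.59, 2.55, 4.84, 2.65 and 2.70 CPM in heart-bearing libraries. Their highest values in heart-free libraries were 0.868, 2.52, 6.38, 4.57 and 0.269 CPM. Actn3, Ryr1, Mybpc2 and Eno3 had heart-bearing medians of 10.1, 25.6, 13.9 and 61.2 CPM. Their heart-free medians were 0.205, 0.341, 0.487 and 30.3 CPM. The third set is therefore called skeletal muscle by the textbook names of its genes. On the further list, 2 defining genes of fast fibres were near 0 and others were low.

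The proportions among most of these genes hardly varied between heart-bearing libraries although their amount varied widely. The heart sum spanned 152 to 4893 CPM over the 19 libraries, whereas the log2 ratio of the liver sum to the heart sum was 1.66 ± 0.07 (SD, n = 19), from 1.57 in library yfp_6419c1_no1 to 1.80 in yfp_7160c2_no1. The highest values came from clones of 1 parent line, 1.80 in yfp_7160c2_no1 and 1.79 in yfp_7160c5_no1. The log2 ratio of the muscle sum to the heart sum was -3.11 ± 0.36 (SD, n = 19), and here 1 library set the spread. It was -1.66 in yfp_6499c3_no1, which had the lowest heart sum and the highest total count, and -3.32 to -2.95 in the other 18, whose mean was -3.19 ± 0.09 (SD).

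Within the heart set the ratio of Myh7 to Myh6 was nearly fixed. Its log2 value was 0.89 ± 0.02 (SD, n = 19), from 0.86 to 0.93, where counting error alone gives an SD of 0.0141. Per kilobase of exon this is a level of Myh7 1.45 times that of Myh6. The log2 ratio of Mybpc3 to Myh6 was -2.30 ± 0.03, with a counting SD of 0.0277, and that of Tnni3 to Myh6 was -3.02 ± 0.05, with a counting SD of 0.0340. Spread between libraries was thus close to counting error for these ratios. It was several times counting error for Pln to Myh6 (-1.50 ± 0.11, counting SD 0.0227) and about the size of it for Actc1 to Myh6 (-3.95 ± 0.05, counting SD 0.0463). Other ratios to Myh6 also spread by more than counting error. The SDs were 0.0655 for Mb, 0.0495 for Myl2, 0.107 for Ryr2, 0.149 for Nppa and 0.601 for Tnnt2. The counting SDs of these 5 were 0.0241, 0.0249, 0.0476, 0.0766 and 0.0161.

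Among the liver genes 3 had wide ratios to Alb and the others narrow ones. The SD of the log2 ratio to Alb over the 19 libraries was 1.37 for Apob, 0.76 for Ttr and 0.47 for Trf. The log2 ratio of Fga to Fgb was -0.29 ± 0.03 and that of Fgg to Fgb was -1.0 ± 0.04 (SD, n = 19), with counting SDs of 0.0129 and 0.0150. Relative to Alb, the log2 ratios of Fgb, Ahsg, Mat1a and Cps1 were -1.52 ± 0.03, -1.97 ± 0.04, -2.63 ± 0.04 and -3.05 ± 0.04. The ratios among these 7 genes spread by more than counting error, with SDs smaller than that between the organs. The log2 ratio of Alb to Myh6, which joins liver and heart, was 2.31 ± 0.08, and per kilobase of exon Alb stood 14.2 times as high as Myh6. For muscle, the log2 ratio of Ckm to Acta1 was -1.55 ± 0.09 (counting SD 0.0609), and that of Acta1 to the cardiac actin Actc1 was 1.05 ± 0.17 (counting SD 0.0543), with its highest value, 1.60, in yfp_6499c3_no1.

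**Figure D2:**
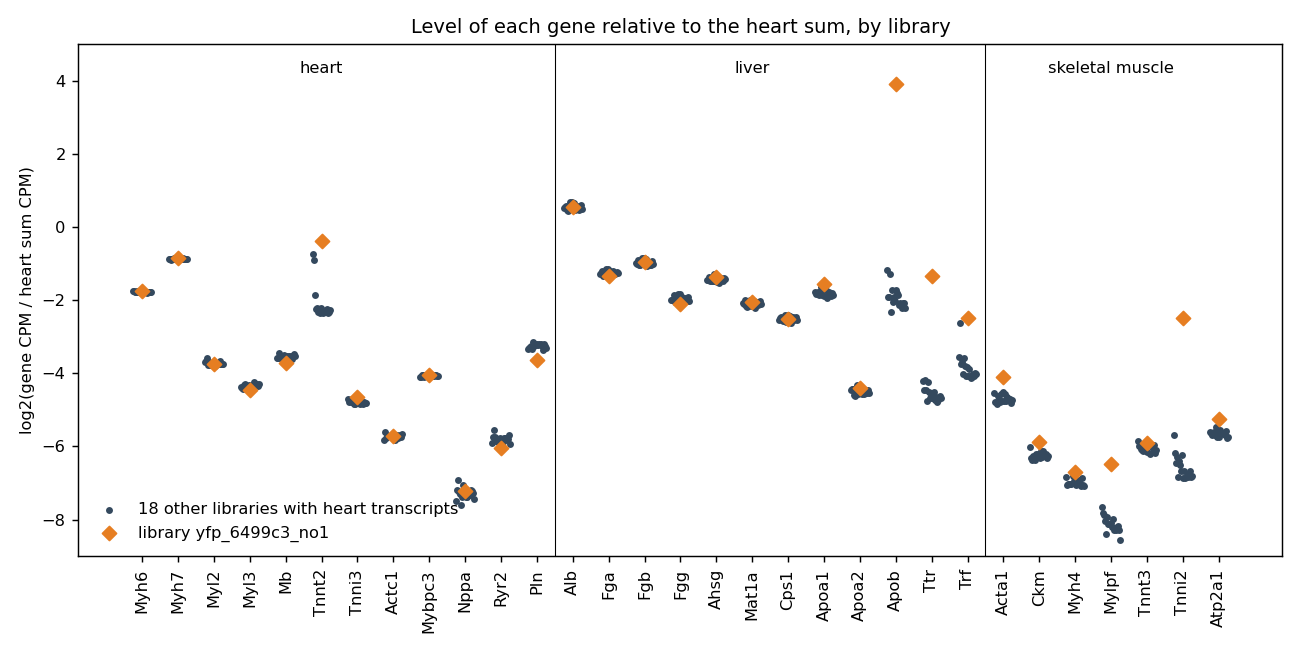
Log2 of each member's CPM over the heart sum of its library, for the 19 heart-bearing libraries; library yfp_6499c3_no1 is drawn as an orange diamond and the other 18 as dots. Most genes form a tight row, and Tnnt2, Apob, Ttr, Trf, Mylpf and Tnni2 spread upwards, farthest in yfp_6499c3_no1.

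Taking each member against the heart sum, 25 of 31 had an SD of the log2 ratio at or under 0.2 over the 19 libraries, a limit chosen after the values were seen. They were 11 heart, 9 liver and 5 skeletal muscle genes, the same 25 that did not overlap between the kinds of library. The slope of log2 level on log2 heart sum, which is 1 for a gene that keeps its proportion, lay between 0.9 and 1.1 for 25 members. It was lowest for Apob (0.159), Tnni2 (0.334), Ttr (0.53) and Tnnt2 (0.563). Without yfp_6499c3_no1, an alternative chosen after seeing the data, the slopes were 0.809 for Apob, 0.698 for Tnni2, 0.869 for Ttr and 0.531 for Tnnt2, and again 25 members lay between 0.9 and 1.1. Pearson's r of log2 level with the log2 heart sum was at least 0.99 for 24 of 29 members that averaged 20 CPM or more, against 2.22% of 8408 genes. All points share the libraries, and the heart sum holds 4 of the members, so this is a description with no p. Outside the list, genes most like the heart sum included Myom2, Cmya5, Mylk3, Actn2, Xirp1, Tcap, Hspb7 and Myoz2, with r of 0.999 or more over the 19 libraries. The first, Myom2, a protein of the sarcomere's M-band, ran from 15.4 to 533.6 CPM in heart-bearing libraries, against at most 0.243 CPM in heart-free libraries.

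By the share of each member in the summed level of its organ, 9 members departed from the rest: Tnnt2, Alb, Fga, Fgb, Fgg, Mat1a, Cps1, Apob and Tnni2. For Alb, the fibrinogen chains, Mat1a and Cps1 the moving part was the sum and not the gene. In yfp_6499c3_no1 Apob alone stood at 2286 CPM, next to a liver sum of 481.2 CPM, while the log2 ratio of Alb to the heart sum ran only from 0.44 to 0.69 over all 19 libraries.

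Tnnt2, Apob, Ttr, Trf, Mylpf and Tnni2 had levels of their own in heart-free libraries. Tnnt2 ran from 115.8 to 1017 CPM in heart-bearing libraries (median 567), against a median of 109.5 and a maximum of 685.3 CPM in heart-free libraries, of which 9 reached the lowest heart-bearing value. Apob, the structural protein of low-density lipoprotein (chr12:7977648-8016835, GRCm38, plus strand), ran from 198.2 to 2286 CPM in heart-bearing libraries (median 1024), against a median of 144.6 and a maximum of 1660 CPM in heart-free libraries. Trf, the plasma iron carrier transferrin, ran from 27 to 306.1 CPM in heart-bearing libraries (median 202.6), against a median of 30.8 and a maximum of 88.8 CPM in heart-free ones. Some heart-free libraries thus held as much Tnnt2 and Apob as heart-bearing ones. Ttr, which carries thyroid hormone and retinol-binding protein, ran from 30.6 to 198.8 CPM in heart-bearing libraries (median 133.9), against a median of 19.8 and a maximum of 135.5 CPM in heart-free ones. Mylpf, the regulatory light chain of fast skeletal myosin, ran from 1.70 to 16.8 CPM in heart-bearing libraries (median 10.4), against a median of 1.31 and a maximum of 2.67 CPM in heart-free ones. Tnni2, fast skeletal troponin I, ran from 10.2 to 47.4 CPM in heart-bearing libraries (median 29.9), against a median of 10.1 and a maximum of 40.0 CPM in heart-free ones. Tnni2 and Tnnt3 lie near each other on chr7 (from 142441808 and from 142498836, GRCm38), but Tnnt3 stayed at or under 1.52 CPM in heart-free libraries.

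Libraries of the same clone could be compared for 20 pairs in 15 clones that had both kinds. Clones yfp_2699c4 and yfp_2838c3 gave several pairs each that share libraries, so the pairs are not independent. The heart-bearing library was the higher of the pair in 20 of 20 pairs for Tnnt2, Trf and Mylpf, in 19 for Ttr and Tnni2 and in 18 for Apob. Clone yfp_6499c3, whose heart-bearing library stood apart in the muscle ratio, had similar levels of several of these genes in both libraries. Apob was 2286 CPM in its heart-bearing library and 1660 CPM in its heart-free library, and Tnni2 was 26.9 CPM in its heart-bearing library and 24.2 CPM in its heart-free library. Ttr was 59.7 CPM in the heart-bearing and 82.0 CPM in the heart-free library of this clone. With Tnni2 left out of the muscle sum, an alternative chosen after seeing the data, the log2 ratio of muscle to heart over the 19 libraries was -3.32 ± 0.14 (SD).

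**Figure D3:**
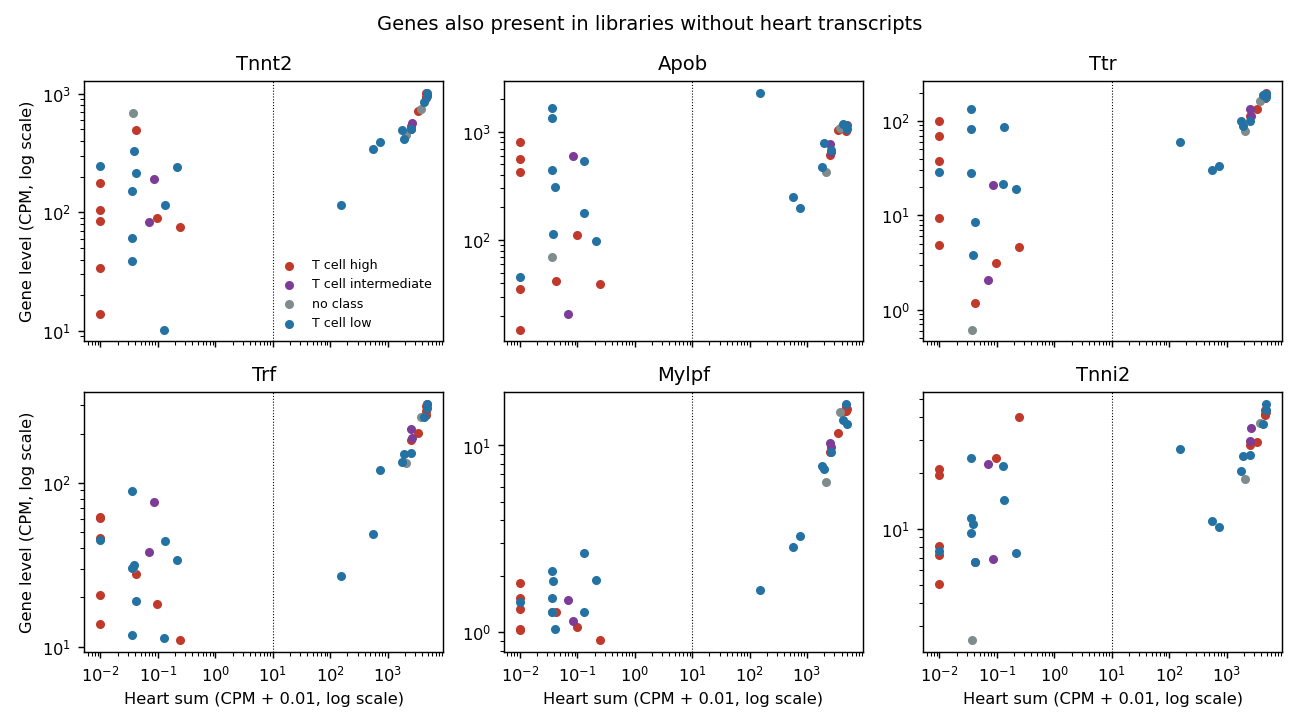
CPM (log scale) of the 6 members that overlap between the kinds of library, against the heart sum in CPM + 0.01 (log scale), coloured by class, with the 10 CPM line dotted. Left of the line, heart-free libraries hold up to 685.3 CPM of Tnnt2 and 1660 CPM of Apob; right of it, Apob is highest, at 2286 CPM, in the library with the lowest heart sum, yfp_6499c3_no1, and the 6 libraries with the highest heart sums hold 922.8 to 1017 CPM of Tnnt2.

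In 6 libraries the heart sum exceeded 4500 CPM (4593 to 4893 CPM), and these came from clones yfp_6620c1, yfp_6499c4, yfp_6556c4, yfp_2699c4, yfp_6555c3 and yfp_6419c5, of both classes. Their epithelial sum lay in a narrow range of 7076 to 7504 CPM, against 7819 to 12702 CPM in 7 heart-free libraries of the same clones. Krt19 was 1008 to 1106 CPM in the 6 libraries, against 1310 to 2926 CPM in the 7 heart-free ones. Sox9 was 42.9 to 57.2 CPM in the 6 libraries, against 103.7 to 253.4 CPM in the 7 heart-free ones. The other 5 epithelial genes overlapped. Krt8, for example, was 2095 to 2177 CPM in the 6 libraries, against 2162 to 3358 CPM in the 7 heart-free ones, and Krt7 was 1271 to 1372 CPM in the 6 libraries, against 483.7 to 2670 CPM in the 7 heart-free ones. The members also had nearly equal levels in these 6 libraries, such as 922.8 to 1017 CPM of Tnnt2, against 75.5 to 499.0 CPM in the heart-free libraries. The 6 libraries were chosen by their heart sum. For members that keep their proportion to that sum, near-equal levels follow from the choice and test nothing. Markers of leukocytes, endothelial cells and fibroblasts had higher medians in heart-bearing libraries, with ranges that overlapped between the kinds. The summed level of 5 leukocyte markers was 80.4 to 338.3 CPM in heart-bearing libraries (median 197.1), against 8.26 to 366.1 CPM in heart-free libraries (median 31.4). That of 4 endothelial markers was 23.5 to 218.6 CPM in heart-bearing libraries (median 171.9), against 3.24 to 154.7 CPM in heart-free libraries (median 11.9). That of 5 fibroblast markers had a median of 3959 CPM in heart-bearing libraries, against 552.7 CPM in heart-free libraries. The mitochondrially encoded share of counts was 1.68 to 4.29% in heart-bearing libraries, against 0.910 to 3.73% in heart-free libraries. The part of these in the result was not tested. The title number separated the kinds in all but 2 libraries, yfp_2699c4_no2 and yfp_7062c3_no1, so the effects of the number and of the heart transcripts cannot be told apart.

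A smaller set of 7 heart-free libraries held liver genes, with a liver sum of at least 10 CPM. The liver sums were 11.1, 15.6 and 37.2 CPM in yfp_2838c3_no2, yfp_2838c3_no3 and yfp_2838c3_no4 (T cell high), 26.6 CPM in yfp_6422c5_no2 (intermediate), and 10.3, 19.4 and 241.2 CPM in yfp_6419c5_no2, yfp_6499c3_no2 and yfp_6419c1_no2 (T cell low). The next lower library, yfp_6419c4_no3, had 1.31 CPM. Their heart sums were 0 to 0.121 CPM, or 0 to 4 counts. At the mean ratio of the heart-bearing libraries, the 9319 liver counts of yfp_6419c1_no2 would have come with 2951 heart counts, and 1 was observed. In the library with the fewest liver counts, yfp_2838c3_no2 with 299, that number would have been 94.7, and 0 were observed. The libraries were chosen for a heart sum under 10 CPM, so these counts describe them and test nothing.

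The make-up of the liver transcripts is given likewise as a description. Alb made up 49.2 to 98.8% of the liver sum in the 7 libraries (median 90.4%), against 45.3 to 47.0% in the 19 heart-bearing libraries. Mat1a was 0 to 0.444% of the Alb level in the 7 libraries, against 15.2 to 17% in heart-bearing libraries. Ahsg was 0 to 6.67% of it in the 7 libraries, against 24.2 to 26.8% in heart-bearing ones, and Cps1 was 0.104 to 3.11% in the 7 libraries, against 11.3 to 12.4% in heart-bearing ones. Each of the 7 libraries lay below every heart-bearing library for these genes and for Fgg (0 to 14.2% in the 7 libraries, against 16 to 18.6% in heart-bearing ones). Apob, Ttr and Trf lay on the other side, at 1123 to 8674%, 86.6 to 1279% and 61.3 to 644.4% of Alb in the 7 libraries, against 14.7 to 1037%, 2.62 to 27.1% and 3.89 to 12.2% in heart-bearing libraries. Without yfp_6499c3_no1, an alternative chosen after seeing the data, the highest values in heart-bearing libraries were 30.9% for Apob, 3.78% for Ttr and 11.1% for Trf. Relative to Alb, Apoa1 was above every heart-bearing library in 6 of the 7. The ratio to Alb is high where Alb is low, and these 3 genes had levels in libraries with almost no Alb as well.

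The 7 libraries were not alike among themselves. In yfp_6499c3_no2, Alb had 745 counts while Fga, Fgb and Fgg together had 4 (0, 2 and 2). In yfp_6419c1_no2, Alb had 4585 counts, Fga 1733, Fgb 2958 and Fgg 649, so Fgb stood at 64.5% of Alb, above the 33.7 to 36.0% of the heart-bearing libraries. In this library Ahsg had 32 counts, Cps1 10 and Mat1a 1. In yfp_6422c5_no2, Fgb had 100 counts beside 1 of Fga and 5 of Fgg. Of the further liver genes, Serpina3k and Cyp3a11 were at 0 CPM in all 7 libraries and Cyp2e1 and Plg at or under 0.0518 CPM, whereas Itih4 reached 165 CPM. Over the 20 heart-free libraries, 1 of 12 members that averaged 1 CPM or more had an r of at least 0.99 with the liver sum, namely Alb, which is part of that sum, against 0.00738% of 13551 genes. The non-members most like the liver sum there included Pax2 (r of 0.898), Cyp2d26, Slc39a10, Manba, Afm, Cyp2s1, Phldb2, Slc6a6 and Osgin1 (r of 0.852), with Pax2, a transcription factor of kidney and other ducts, at 0 to 61.0 CPM.

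**Figure D4:**
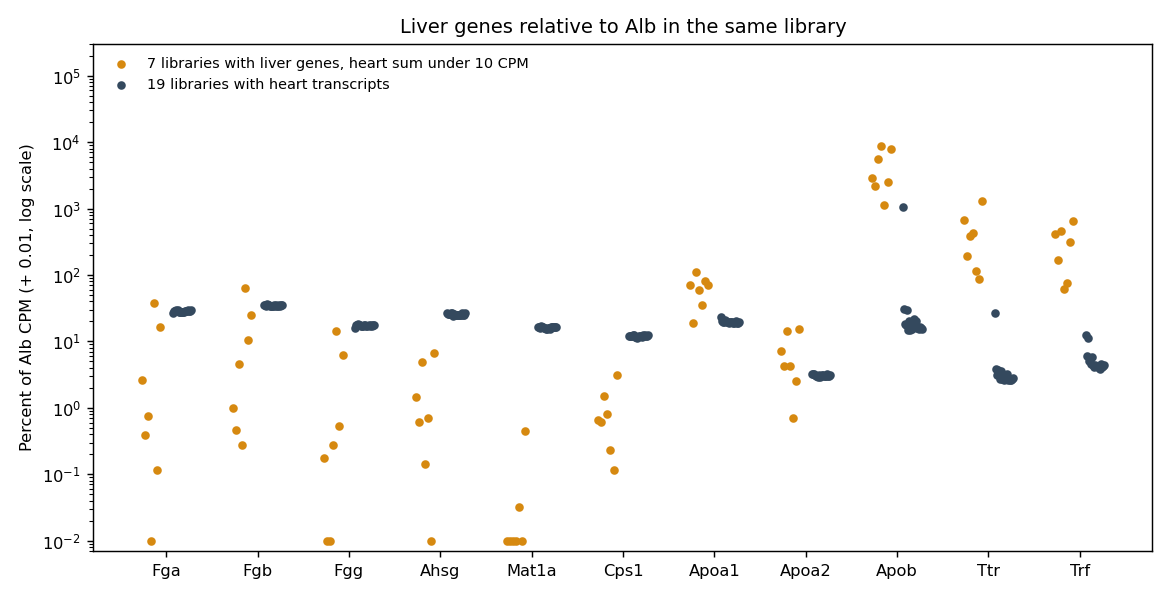
Level of each liver member as a percent of the Alb level of the same library (+ 0.01, log scale), for 7 heart-free libraries with a liver sum of at least 10 CPM (orange, left) and 19 heart-bearing libraries (dark, right). Heart-bearing libraries lie close together for most genes but spread from 14.7 to 1037% for Apob, where yfp_6499c3_no1 is highest. The 7 others lie below them for Mat1a, Ahsg, Cps1 and Fgg and above them for Apob, Ttr and Trf.

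The study compared tumours classed T cell high with those classed T cell low, and the members were read in that comparison. Among heart-bearing libraries the heart sum was 2553 to 4872 CPM in 6 T cell high libraries (median 4656) and 152 to 4893 CPM in 9 T cell low libraries (median 1954). It was 2544 and 2647 CPM in the intermediate libraries and 2123 and 3780 CPM in those with no class. The high values lay within the range of the low class. Low-class values of 152, 568.3, 741.2, 1799 and 1954 CPM lay below every value of the high class. Of the heart-free libraries, 8 were T cell high and 9 T cell low.

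With the counts of a clone summed, edgeR's quasi-likelihood test called none of 18551 genes at a Benjamini-Hochberg adjusted p under 0.05 (0%), so 0 of the 31 members were called. The smallest adjusted p was 0.103, 2176 genes had an unadjusted p under 0.05, and none of these was a member. DESeq2 on the same sums called 158 of 21070 genes (0.75%), again 0 of the 31 members. With each library taken as a replicate, edgeR called 9 of 16693 genes (0.0539%), and 13 of 19461 (0.0668%) with the title number as a block, in both cases 0 of the 31 members. Both of these fits count libraries of 1 clone as independent, so their p-values do not measure the spread between clones. With the counts of a clone summed, the log2 difference of T cell high over low was above 0 for 30 of 31 members. Its median was 0.85, beside a median of -0.01 over all genes tested. A clone's sum joins heart-bearing and heart-free libraries in a mix that differs between clones. The classes are thus not compared at an equal mix for any member. With the title number as a block the direction turned: the difference was above 0 for 1 of 31 members, with a median of -1.44, beside -0.02 over all genes tested. The number 1 was carried by 18 of the 19 heart-bearing libraries. The members move together, so this count is not one of independent genes. Apob was the exception at -0.47 ± 0.44 (SE).

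The 5 members with the smallest p were Tnni2, Mylpf, Tnnt2, Tnnt3 and Apoa2. Tnni2 averaged 27.5 ± 9.28 CPM in T cell high clones and 18.9 ± 7.25 CPM in T cell low clones (SD, n = 6 and 9), a log2 difference of 0.48 ± 0.27 (SE), with an adjusted p of 0.474 by edgeR. Tnnt2 averaged 481.0 ± 150.5 CPM in T cell high clones and 320.3 ± 129.3 CPM in T cell low clones, a log2 difference of 0.53 ± 0.30 (SE). Neither difference passed the test, with an adjusted p of 0.479 by edgeR for Tnnt2. The log2 differences of Mylpf, Tnnt3 and Apoa2 were 0.59 ± 0.33, 0.84 ± 0.55 and 0.93 ± 0.62 (SE). In heart-bearing libraries alone (6 against 8 clones) edgeR called 0 of 17313 genes, 1851 of which had an unadjusted p under 0.05, and the members' median was 0.76. In heart-free libraries alone (6 against 8 clones) it called 0 of 15635 genes, 2095 of which had an unadjusted p under 0.05. There 13 members passed the filter on low counts, 5 of them with a positive difference, and their median was -0.48. Passing depended on the level in these libraries, so the count and median describe those 13 genes alone. Apob had the smallest p of these, with a log2 difference of -2.07 ± 0.91 (SE) and an edgeR adjusted p of 0.355.

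The sums and ratios were also compared over clones with two-sided exact permutation tests, adjusted over the 3 tests. The clone mean of log2(heart sum + 0.1 CPM) was taken over heart-bearing and heart-free libraries together. It therefore follows the mix of the 2 kinds in a clone. It was 10.9 in yfp_6422c1, whose 1 library was heart-bearing, and -2.99 in yfp_6419c4, whose 1 library was heart-free. The classes are thus not compared at an equal mix. The clone mean was 3.96 ± 1.78 in 6 T cell high clones and 3.90 ± 3.60 in 9 T cell low clones (SD), a difference of 0.06 (exact p = 0.975, adjusted p = 0.975). The direction of this difference turned when any of 8 clones was left out, down to -0.81 without yfp_6419c4. The log2 ratio of liver to heart was 1.67 ± 0.08 in 6 T cell high clones and 1.63 ± 0.03 in 8 T cell low clones, a difference of 0.04 (exact p = 0.181, adjusted p = 0.542). The log2 ratio of muscle to heart was -3.22 ± 0.09 in T cell high clones and -2.99 ± 0.55 in T cell low clones, a difference of -0.23 (exact p = 0.443, adjusted p = 0.664), and -0.04 without clone yfp_6499c3. None of these 3 differences passed the test.

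**Figure D5:**
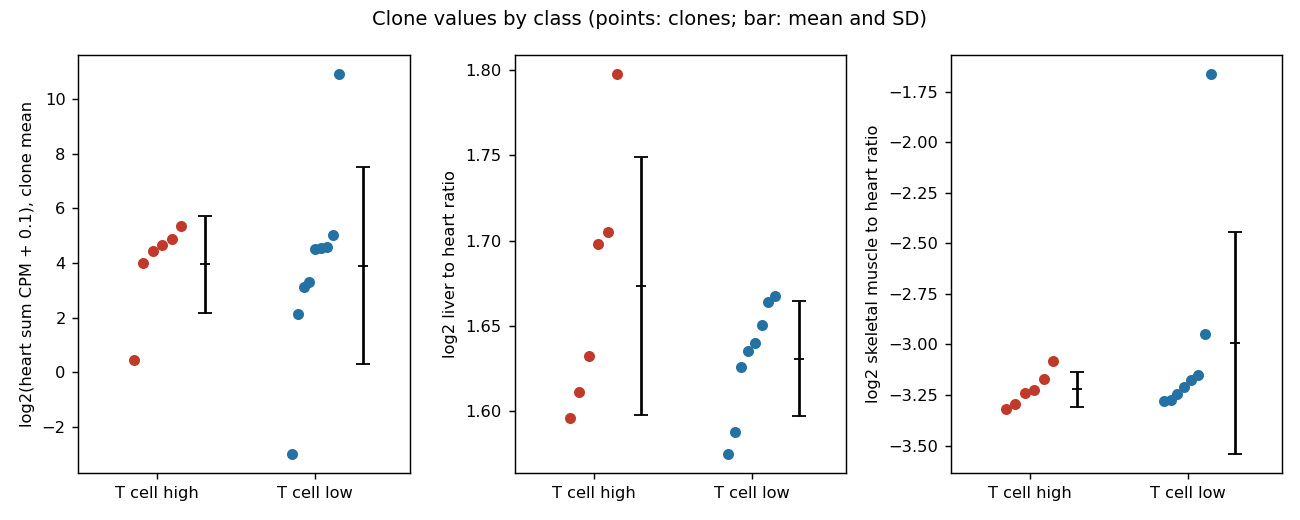
Clone values (points) with mean and SD (bars) by class for the log2 heart sum (CPM + 0.1; clone means over all libraries), the log2 liver to heart ratio and the log2 muscle to heart ratio (heart-bearing libraries). The classes overlap in all 3, and the T cell low clone at -1.66 in the muscle ratio is yfp_6499c3.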

How the data were processed

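The authors deposited raw counts per gene for 39 libraries, made with STAR and featureCounts on mm10, per the submitters' processing notes. With software versions, gene annotation and strand handling not named there, overlapping genes may have their reads assigned to a neighbour. CPM were computed here from library totals. Coordinates and exon lengths came from GENCODE M21 (GRCm38), which held 37607 of the gene identifiers. Members and gene lists were chosen with earlier results of these data known.

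Counts were summed per clone and compared in edgeR 4.0.16 (R 4.3.3) by its quasi-likelihood test (filterByExpr, TMM factors, Benjamini-Hochberg adjusted p under 0.05 over all genes), with DESeq2 1.42.0 as an alternative. The class test of the heart sum used a pseudocount of 0.1 CPM and those of the ratios none, each by an exact permutation test in Python 3.11.15. The edgeR fit was tried on simulated counts, and the permutation test on a small set of fixed values. Standard errors come from the fitted F value. All 31 members are accounted for. Fuller values are given for the 4 members of each organ with the highest mean CPM per kb, those departing from their organ (SD of the log2 share over 0.5 or over 3 times the median), the 5 with the smallest class p, and the 10 non-members most like each sum, some of which are not reported here. Further marker lists covered kidney, brain, lung, small intestine, exocrine pancreas, testis, fat, skin, red blood cells, smooth muscle, macrophages and T cells. Alternatives changed scaling, filters, thresholds, summed genes, libraries and replicates. Counting SDs and limits cover counting error only.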

Additional observations from a re-analysis of the deposited data

Results flagged for a closer look

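In the clone means of log2(heart sum + 0.1 CPM), clone yfp_2838c3 lay at 0.44, far below the other 5 T cell high clones, which lay between 4.0 and 5.34. It had 1 heart-bearing and 3 heart-free libraries. In the log2 ratio of muscle to heart, clone yfp_6499c3 lay at -1.66, far above the other 7 T cell low clones. Both stood apart by Dixon's criterion, the gap to the nearest clone divided by the range of the class. Groups of clones were examined in this way for 6 combinations of class and measure, and chance sets such a value apart in about 1 of 20. The 3 libraries whose labels give no class entered no class comparison. Among them, yfp_6883c1_no1 had a heart sum of 2123 CPM and yfp_6883c4_no1 one of 3780 CPM. Both values lie within the range of the heart-bearing libraries, 152 to 4893 CPM.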

How the results depend on the processing

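The number of heart-bearing libraries was 19 at thresholds of 1 and 100 CPM and with TMM scaling, but 39 when all 12 heart members were summed, since Tnnt2 is present in every library. The libraries with liver genes but no heart sum numbered 1 at a threshold of 100 CPM and 0 when all members of each organ were summed. Over heart-bearing libraries the log2 liver to heart ratio was 1.52 with all members summed, 1.19 as a mean of log2 values and 1.91 without the most abundant member of each sum. The muscle to heart ratio was -3.76, -3.79 and -2.59 in the same 3 settings. Between the classes the liver to heart difference was -0.13 with all members summed. The heart sum difference ran from -0.81 to 0.93 with each clone left out in turn. The count of genes called between the classes was 158 with DESeq2, 9 with each library as a replicate, and 0 to 16 with each clone left out: 16 without yfp_2838c3 and 1 without yfp_6421c2. None of these calls was a member. In heart-free libraries alone the Mylpf difference was -0.41.

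With each library as a replicate and the title number as a replicate block, 13 genes were called, none of them a member, and 1 of 31 members had a positive difference (median -1.44). The block turned Mylpf to -0.28, Tnnt2 to -0.19, Tnnt3 to -1.86 and Apoa2 to -0.86. In it, yfp_2699c4_no2 (T cell low) is the only heart-bearing library with a number other than 1, which by construction weighs on these values. Deviations from the class means correlated at a mean r of 0.38 between a high and a low library of the same number (93 pairs, lowest -0.70) and of -0.22 for different numbers (159 pairs), and 8 of 14 high libraries correlated best with a low library of their own number. An r over 0.1 was found in 80 of the 93 pairs and in 43 of the 159. The labels do not say what the number marks and not every pair of the same number passed 0.1, so it was not treated as a pairing, although the number runs with the kinds of library. The cause of the other changes was not tested. Depth limits values near 0: 3 counts were 0.0720 to 0.112 CPM in heart-free libraries.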

Other observations

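Markers of most other organs did not separate the kinds of library. None of the listed genes of kidney, brain, exocrine pancreas, testis, fat, skin, red blood cells, smooth muscle, macrophages or T cells was higher in every heart-bearing library than in any heart-free library. Des, on the smooth muscle list, came close, with 12.4 to 358.3 CPM in heart-bearing libraries (median 201.2). Its median in heart-free libraries was 0.694 CPM and its maximum there 13.1 CPM. The SD of the log2 ratio to the heart sum was 0.0770 for Des, against 0.699, 0.916, 1.09 and 0.808 for Myh11, Acta2, Cnn1 and Tagln. The summed kidney markers were 0.337 to 2.96 CPM in heart-bearing libraries and 0.0598 to 3.06 CPM in heart-free libraries, and the exocrine pancreas markers were 9.07 to 42.5 CPM in heart-bearing and 2.93 to 70.4 CPM in heart-free libraries. The testis markers were at most 0.320 CPM in heart-bearing and 0.436 CPM in heart-free libraries. Brain markers were 33.1 to 116.9 CPM in heart-bearing libraries and 20.9 to 115.6 CPM in heart-free libraries, and skin markers were 3.78 to 15.8 CPM in heart-bearing and 6.23 to 42.2 CPM in heart-free libraries.

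On the lung and intestine lists, 3 genes did separate them: Sftpc and Sftpa1, which encode surfactant proteins of alveolar cells, and the apolipoprotein gene Apoa4. The other genes on the intestine list, Fabp2, Lct, Alpi and Sis, overlapped between the kinds. The SD of the log2 ratio to the heart sum was 0.150 for Apoa4, against 2.15, 1.48 and 1.72 for Fabp2, Lct and Alpi. The 4 lung markers summed to 0.694 to 23.4 CPM in heart-bearing libraries, against 0.0553 to 0.465 CPM in heart-free libraries, and their log2 ratio to the heart sum was -8.24 ± 0.29 (SD, n = 19). The 5 intestine markers summed to 11.4 to 36.4 CPM in heart-bearing libraries, against 1.09 to 34.1 CPM in heart-free libraries. Red blood cell markers summed to 17.9 to 345.6 CPM in heart-bearing libraries and 1.55 to 106.8 CPM in heart-free libraries, and smooth muscle markers to 48.6 to 574.5 CPM in heart-bearing and 9.62 to 356.3 CPM in heart-free libraries. The median sums of macrophage, T cell and fat cell markers were 1203, 4.56 and 9.20 CPM in heart-bearing libraries, against 229.2, 0.566 and 6.38 CPM in heart-free libraries.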
